A study of Mus musculus with 28 samples.

Results

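The genes described here store, release and take up triglyceride in the heart: the enzymes of triglyceride synthesis Dgat1 and Dgat2, the lipases Pnpla2 and Lipe, the lipid droplet coat proteins Plin2 and Plin5, and the genes of fatty acid uptake Lpl, Angptl4, Vldlr and Cd36. They were chosen by name from the count table, in which all 10 were found among 45513 genes. All 10 passed the filter on low counts that left 24273 genes for testing. RNA was sequenced from the ventricular myocardium of 28 adult male C57BL/6 mice. Every animal ate a diet supplemented with hydroxyproline and calcium, and every animal received an oral gavage on day 7. The sham-vehicle group (10 mice) had sham surgery and was given culture medium alone. The CKD-vehicle group (6 mice) had a 5/6 nephrectomy in 2 stages, as a model of chronic kidney disease (CKD), and was given the same medium. The sham-Oxf group (5 mice) and the CKD-Oxf group (7 mice) had the sham or the kidney surgery and were given Oxalobacter formigenes (Oxf), a gut bacterium that degrades oxalate. The title of the study asks how colonization with this bacterium bears on the progression of CKD and on cardiac remodelling. The labels describe a design of 40 mice in groups of 10, of which 28 are analysed here.

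The libraries held from 19.8 to 65.4 M counts (M, 1e6 counts). Sham-Oxf replicate 1 stood apart, with 19.8 M counts and 15879 genes with at least 1 count, against 27128 to 33995 such genes in the other 27 libraries. The labelled tissue was checked, as heart muscle and not as ventricle, with 7 cardiomyocyte markers, all above 0 in every library. Their summed level ran from 16907 to 31697 CPM (the counts of a gene per 1e6 counts of its library, with library sizes scaled by edgeR's TMM) in sham-vehicle, from 28857 to 43139 in CKD-vehicle, from 18839 to 26889 in sham-Oxf and from 22927 to 39263 in CKD-Oxf. The 7 adipocyte markers were also present, from 4.70 to 444 CPM in sum in sham-vehicle, from 3.10 to 205 in CKD-vehicle, from 0.0474 to 191 in sham-Oxf and from 4.28 to 418 in CKD-Oxf. Of these, Adipoq, Plin1, Cidec and Adig were at 0 in 1 library, Retn in 2 and Lep in 4. The share of counts on the 7SL RNA genes, an abundant RNA transcribed by RNA polymerase III, ran from 1.83% to 21.0%. The mice carried numbers in the labels that run in blocks with the groups (901 to 910, 913 to 920, 921 to 929 and 931 to 940), and a difference between groups cannot be told apart from one that follows the number. Each library is labelled as a separate mouse, and all p-values measure the spread between mice.

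As background, the heart burns mostly fatty acids and keeps a small, fast-turning store of triglyceride in lipid droplets. Lipoprotein lipase, made by cardiomyocytes from Lpl and moved to the capillary wall, frees fatty acids from circulating triglyceride; Angptl4 inhibits it, the very-low-density lipoprotein receptor (Vldlr) binds triglyceride-rich particles, and Cd36 carries fatty acids across the membrane. The 2 acyltransferases Dgat1 and Dgat2 add the last acyl chain of triglyceride, the lipase ATGL (from Pnpla2) removes the first and hormone-sensitive lipase (from Lipe) acts on the diglyceride, while Plin2 and Plin5 coat the droplet and limit access of the lipases. Many of these genes are targets of the fatty acid sensing nuclear receptors of the PPAR family, and several are abundant in fat cells as well.

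In the genome (GRCm38, GENCODE M21) Dgat1 lies on chromosome 15 from 76502015 to 76511953, and Dgat2 on chromosome 7 from 99153658 to 99182719, both on the minus strand. Pnpla2 lies on the plus strand of chromosome 7 from 141455198 to 141460743, and Lipe on its minus strand from 25379527 to 25398710. Plin2 lies on chromosome 4 from 86648386 to 86670060 and Plin5 on chromosome 17 from 56111601 to 56117596, both on the minus strand. Lpl lies on chromosome 8 from 68880491 to 68907448 and Vldlr on chromosome 19 from 27216484 to 27254231, both on the plus strand. Angptl4 lies on chromosome 17 from 33773750 to 33781830 and Cd36 on chromosome 5 from 17781690 to 17888801, both on the minus strand. All are protein-coding. Lipe shares 918 exonic bases, 15.6% of its exonic length, with the antisense gene 4732471J01Rik. Whether the counting used strand is not given in the sources used here, so a part of the Lipe counts could come from either gene. The other 9 genes overlap no annotated exon of another gene.

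Promoter sequences of RefSeq (GRCm38.p6) were matched for 6 of the 10 genes and searched on both strands, over the 250 bases before the start, for the E-box CACGTG, bound by clock factors among others, and for AGGTCA, the core letters bound by many nuclear receptors. The E-box was found in 6.02% and AGGTCA in 14% of all 32851 promoters. The windows of 30 bases below are shown because Lipe had the smallest p of the 10 against the clock score described later, and because the other 3 hold an AGGTCA match. The windows of Pnpla2 and Vldlr, and a second annotated start each of Lipe and Plin5, held neither motif. Each is written 5′ to 3′ on the gene's own strand, with the match in capitals (TGACCT is AGGTCA read on the other strand).
Lipe: aacagggacgacCACGTGagggggcggagg
Plin5: agtcctagtctgAGGTCAgccatggtgact
Plin2: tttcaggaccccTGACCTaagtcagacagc
Cd36: ctctgcactttaTGACCTgagattttcagg
The Lipe window is chr7:25396125-25396154 (minus), with 149 bases between the match and the start. It lies in an exon of another annotated Lipe transcript, in its UTR, and also within the span of the antisense gene 4732471J01Rik. The Plin5 window is chr17:56117701-56117730 (minus, 164 bases from the start) and the Plin2 window chr4:86670260-86670289 (minus, 212 bases), and neither overlaps an annotated gene. The Cd36 window is chr5:17836107-17836136 (minus, 222 bases), in an intron of Cd36 by the longer GENCODE span. None of the 6 genes held AGGTCA repeated in the same direction with a spacing of 1 base, which 0.0335% of all promoters held. A match is a stretch of letters and says nothing of binding.

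Levels were compared between the genes per length, as CPM per exonic kilobase (RPKM). Over all 28 libraries, Cd36 (136.7 ± 57.9 RPKM, SD, n = 28) and Lpl (120.8 ± 67.3 RPKM) were the most abundant. The gap between these means was smaller than either SD, a comparison that leaves out their pairing within libraries. Lpl averaged higher than Cd36 in CKD-vehicle (177.7 against 168.2 RPKM) and lower in every other group. Pnpla2 followed at 35.7 ± 9.38 RPKM. Vldlr (18.1 ± 3.15 RPKM), Plin5 (16.3 ± 6.61 RPKM) and Dgat2 (16.2 ± 3.57 RPKM) lay together, with gaps smaller than the spread of either neighbour. Lipe was at 10.9 ± 4.22 RPKM. Plin2 (6.17 ± 1.12 RPKM) and Dgat1 (6.01 ± 1.47 RPKM) also lay within each other's spread. Angptl4 was the lowest, at 1.21 ± 1.01 RPKM. The heart libraries thus held more of the uptake genes Cd36 and Lpl, per length, than of any lipase, coat protein or acyltransferase gene of the 10.

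The genes differed in how much they varied between mice of a group. The pooled within-group SD of log2 CPM was 0.24 for Vldlr, 0.27 for Plin2, 0.33 for Dgat2, 0.35 for Pnpla2 and 0.40 for Dgat1. It was 0.57 for Lipe, 0.58 for Cd36, 0.62 for Plin5 and 0.69 for Lpl. Angptl4 varied most, at 1.39 with all libraries and 0.87 without sham-Oxf replicate 1, where it had no count. From the lowest to the highest library, CPM spanned 2.14-fold for Plin2, 2.19-fold for Vldlr, 4.89-fold for Cd36, 5.11-fold for Plin5, 7.22-fold for Lpl and, over the 27 libraries with a count, 11.2-fold for Angptl4.

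**Figure D1:**
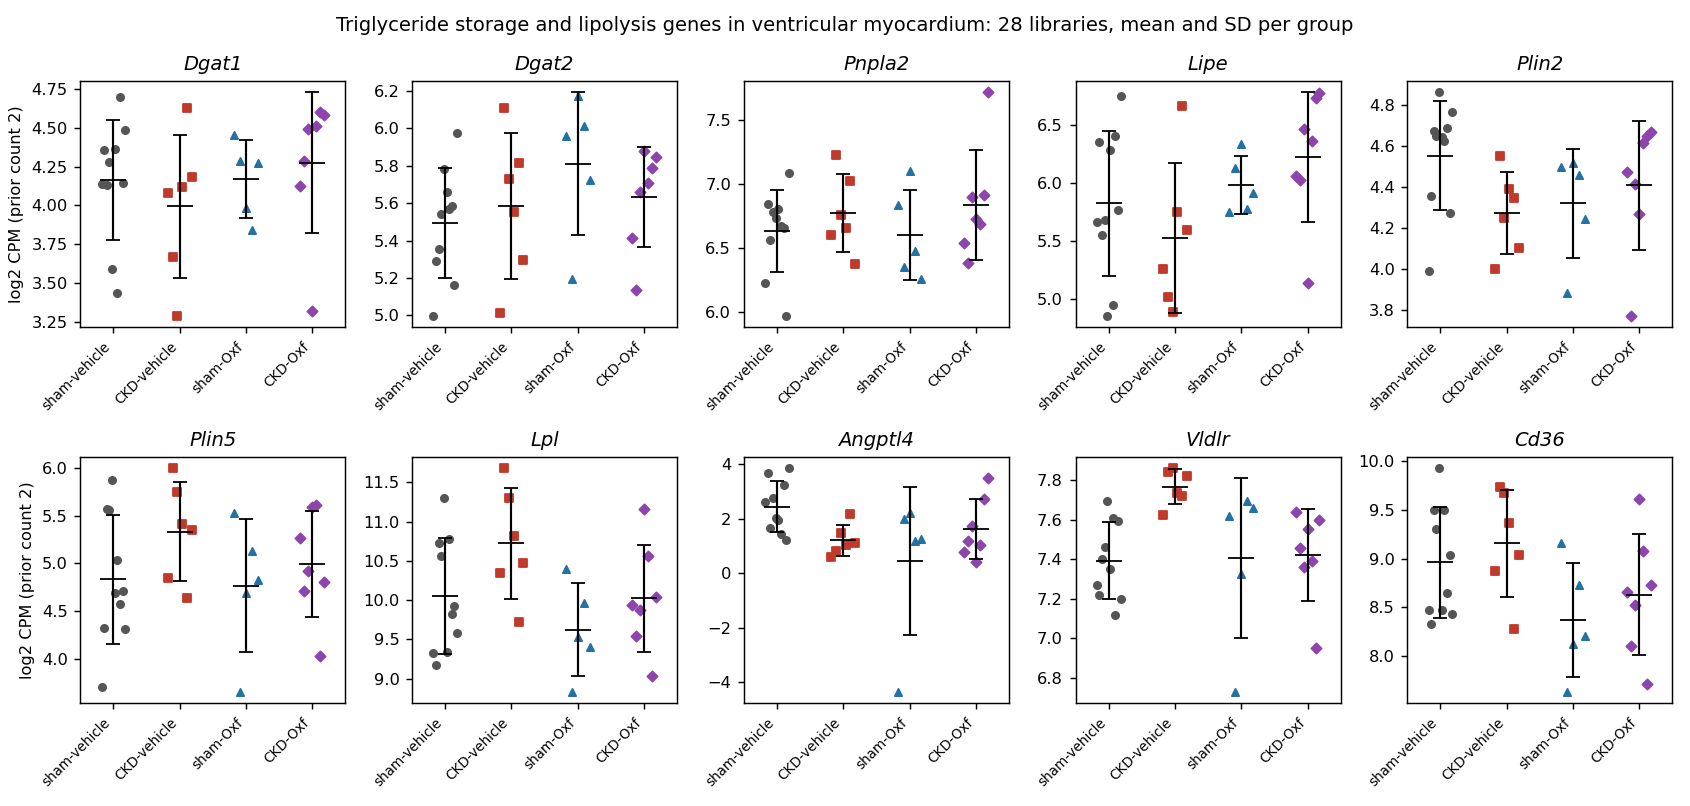
Log2 CPM (y axes, prior count of 2) of the 10 genes, a panel for each, in the 4 groups (x axis), with a point for each mouse and a bar with whiskers for the mean and SD. Every pair of groups overlaps for every gene; the Vldlr points of CKD-vehicle (198 to 233 CPM) sit at the upper end of the others.

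None of the 10 genes passed the threshold (adjusted p of 0.05, Benjamini-Hochberg over all 24273 genes) in any of the 7 group comparisons by edgeR's quasi-likelihood test. Between CKD-vehicle and sham-vehicle, 3 of the 10 had an unadjusted p under 0.05, while 4.46% of all genes had one and 0.00824% passed. Between CKD-Oxf and CKD-vehicle 2 of 10 had one, against 13.1% of all genes, with 0.033% passing. Between sham-Oxf and sham-vehicle it was 1 of 10, against 12.6% of all genes and 0% passing. Between CKD-Oxf and sham-Oxf it was 0 of 10, against 8.23% and 0%. For the effect of Oxf averaged over both surgeries it was 2 of 10, against 23% of all genes and 2.81% passing. For the effect of CKD averaged over both gavages it was 1 of 10, against 10.6% and 0%, and for the interaction 1 of 10, against 3.55% and 0%. DESeq2 called none of the 10 in any of these comparisons. Limma voom with sample weights called Lipe between CKD-Oxf and CKD-vehicle, where it called 3639 of all 24273 genes, and Cd36 and Lpl for the averaged effect of Oxf, where it called 5336.

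**Figure D2:**
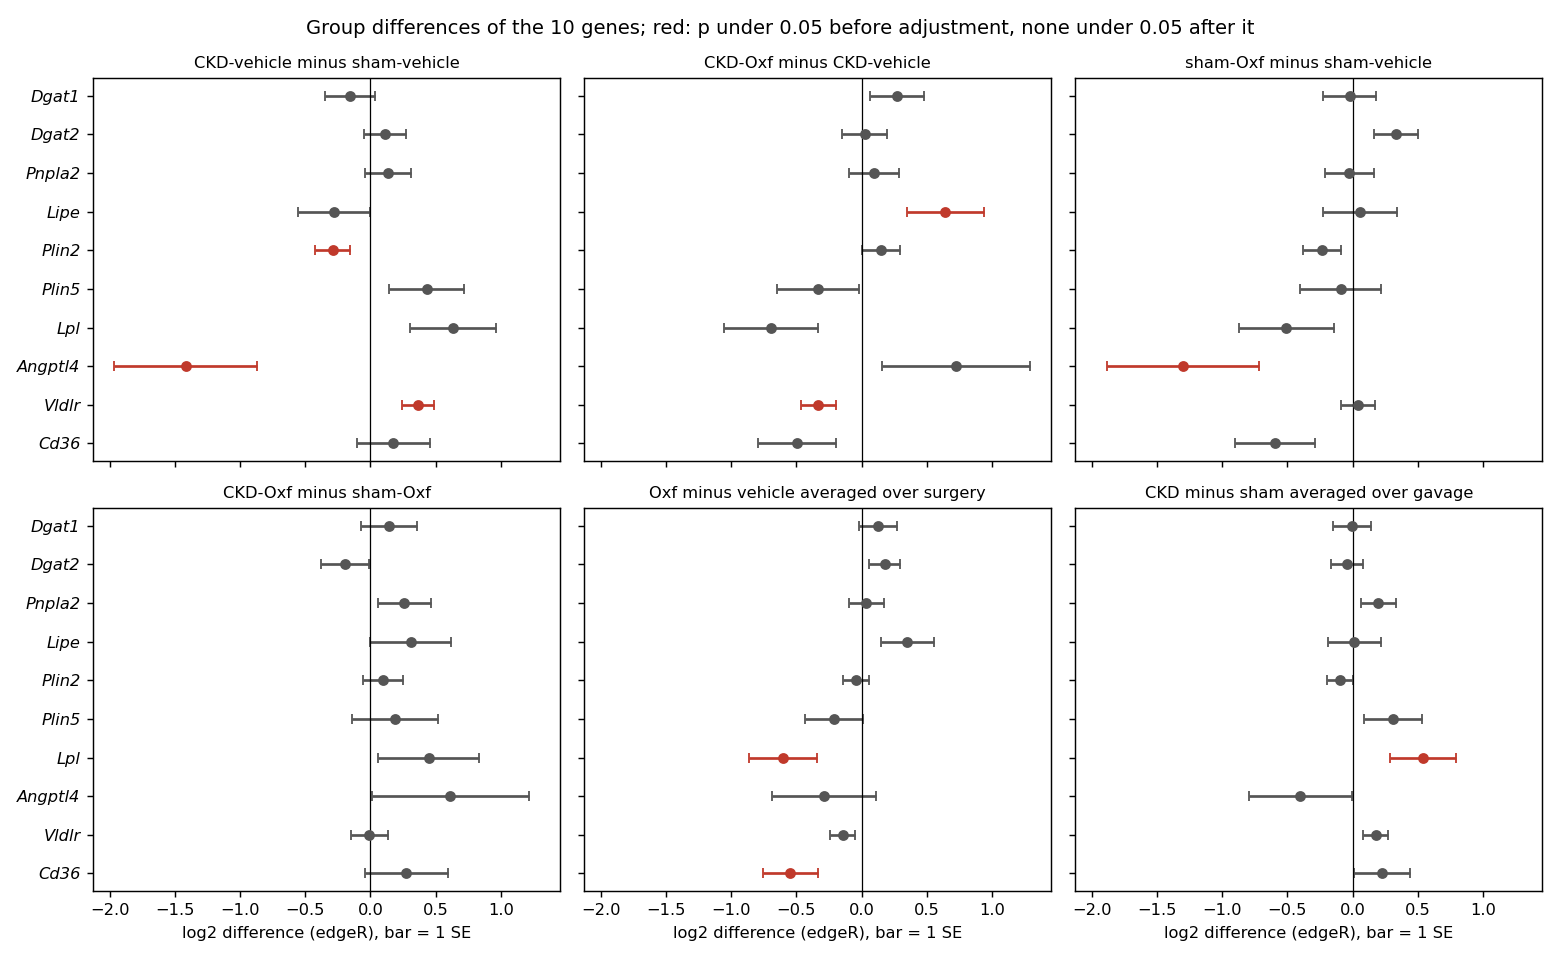
Log2 differences (x axis) of the 10 genes (y axis) in 6 group comparisons (a panel for each), with bars of 1 standard error from edgeR and unadjusted p under 0.05 in red. No gene passed the adjusted threshold; the differences with unadjusted p under 0.05 are those of Vldlr, Angptl4, Plin2, Lipe, Cd36 and Lpl given in the text.

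Vldlr, the lipoprotein receptor, had the smallest p of the 10 between the vehicle groups. Its CPM ran from 139 to 207 in sham-vehicle (median 166) and from 198 to 233 in CKD-vehicle (median 219.6). It was 196, 106, 160.2, 207 and 202 CPM in sham-Oxf replicates 1 to 5, and from 124 to 199.6 in CKD-Oxf (median 176). So 5 of 6 CKD-vehicle mice lay above every sham-vehicle mouse, 6 of 7 CKD-Oxf mice lay below every CKD-vehicle mouse, and the ranges met only at their ends. The log2 difference between CKD-vehicle and sham-vehicle was 0.37 ± 0.12 (SE, edgeR p = 0.00609, adjusted p = 0.955). Between CKD-Oxf and CKD-vehicle it was −0.33 ± 0.13 (edgeR p = 0.0193, adjusted p = 0.308). The summed cardiomyocyte markers had medians of 26044 CPM in sham-vehicle, 30535 in CKD-vehicle and 25541 in CKD-Oxf. The markers did not all move alike. Ryr2 averaged 3051 CPM in CKD-vehicle and 3389 CPM in CKD-Oxf, while all the others averaged lower in CKD-Oxf, such as Tnni3 (1183 and 661 CPM). With a cardiomyocyte marker score as covariate, the first difference was 0.19 ± 0.11 and the second −0.15 ± 0.12. In bulk tissue, fewer cells of a type and less RNA per cell cannot be told apart.

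Angptl4, the inhibitor of lipoprotein lipase, differed most in size. In sham-vehicle it ran from 2.28 to 14.4 CPM (median 5.01), and in CKD-vehicle from 1.48 to 4.49 CPM (median 2.05). In sham-Oxf replicates 1 to 5 it was at 0, 3.92, 4.51, 2.19 and 2.34 CPM, and in CKD-Oxf it ran from 1.28 to 11.04 CPM (median 2.20). The 0 allows up to 0.142 CPM by a floor of 3 counts. That floor rests on the count total alone, while sham-Oxf replicate 1 had few genes with a count (15879), so the true limit may be higher. All 6 CKD-vehicle mice and all 5 sham-Oxf mice lay below the sham-vehicle median, and 4 of the 6 CKD-vehicle mice lay below the lowest sham-vehicle mouse. The log2 difference was −1.42 ± 0.55 between CKD-vehicle and sham-vehicle (edgeR p = 0.0151, adjusted p = 0.955) and −1.30 ± 0.59 between sham-Oxf and sham-vehicle (edgeR p = 0.0340, adjusted p = 0.351). Without sham-Oxf replicate 1 the latter was −0.996 ± 0.53. The interaction of surgery and gavage was 2.03 ± 0.81 (edgeR p = 0.0185, adjusted p = 1), and 1.73 ± 0.71 without that library. The summed adipocyte markers had a median of 84.0 CPM in the sham-vehicle mice and 34.3 CPM in the CKD-Oxf mice, against 15.3 CPM with CKD and vehicle and 23.0 CPM with sham surgery and Oxf. With an adipocyte marker score as covariate, the difference between the vehicle groups was −0.62 ± 0.32, that between the sham groups −0.94 ± 0.34 and the interaction 1.01 ± 0.48.

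Lpl, the lipase on the capillary wall, ran from 579 to 2515 CPM in sham-vehicle (median 939.6), from 844 to 3292 in CKD-vehicle (median 1610.2) and from 525 to 2288 in CKD-Oxf (median 982). In sham-Oxf replicates 1 to 5 it was 1346, 456, 739.7, 997 and 675 CPM. The highest mice were in CKD-vehicle, where 5 of 6 lay above the sham-vehicle median, and 6 of 7 CKD-Oxf mice lay below the CKD-vehicle median. The effect of Oxf averaged over both surgeries was −0.60 ± 0.26 (log2, edgeR p = 0.0268, adjusted p = 0.160), and that of CKD averaged over both gavages 0.54 ± 0.26 (edgeR p = 0.0436, adjusted p = 0.459). With the cardiomyocyte score as covariate these were −0.02 ± 0.14 and 0.02 ± 0.14, and with the log2 7SL share −0.03 ± 0.18 and 0.17 ± 0.17. Like Lpl, the score and the 7SL share averaged highest in CKD-vehicle (0.46 and 13.6%) and lowest in sham-Oxf (−0.17 and 4.14%). These fits therefore cannot tell the part of either measure from that of Oxf or CKD.

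Cd36 codes for the fatty acid transporter. It ran from 322 to 973 CPM in sham-vehicle (median 462), from 309.9 to 849.9 in CKD-vehicle (median 592) and from 210.0 to 778 in CKD-Oxf (median 405), and was 572, 199, 279, 424 and 296 CPM in sham-Oxf replicates 1 to 5. Of the 5 sham-Oxf mice, 4 lay below the sham-vehicle median and 3 below its lowest mouse; of the 7 CKD-Oxf mice, 6 lay below the CKD-vehicle median. The averaged effect of Oxf was −0.55 ± 0.21 (log2, edgeR p = 0.0164, adjusted p = 0.130). Voom gave −0.65 ± 0.17 for it (adjusted p = 0.00879), and −0.63 ± 0.20 for Lpl (adjusted p = 0.0262). Without CKD-Oxf replicate 4, edgeR also called both, Cd36 at −0.66 ± 0.20 (adjusted p = 0.0258) and Lpl at −0.74 ± 0.24 (adjusted p = 0.0379), in a fit that called 3362 of 24232 genes. With the adipocyte score as covariate both passed as well, at −0.60 ± 0.14 (edgeR adjusted p = 0.0160) and −0.65 ± 0.19 (edgeR adjusted p = 0.0391), among 1840 genes called. With the cardiomyocyte score Cd36 was at −0.11 ± 0.12, with the clock score (defined under Lipe) at −0.11 ± 0.34 and with the 7SL share at −0.10 ± 0.15. So the sign held in these fits, and the size fell to a small part of the first value with the cardiomyocyte score, the clock score or the 7SL share. Within each surgery the clock score averaged higher with Oxf, and the cardiomyocyte score and the 7SL share averaged lower. These fits therefore cannot tell the part of those measures from that of Oxf.

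Of the acyltransferases, Dgat1 ran from 10.8 to 26.0 CPM in sham-vehicle (median 18.5), from 9.70 to 24.6 in CKD-vehicle (median 17.1) and from 9.92 to 24.2 in CKD-Oxf (median 22.5), with 21.9, 19.5, 15.8, 14.3 and 19.3 CPM in sham-Oxf. The ranges of the 4 groups overlapped, with that of sham-Oxf inside the others, and no comparison reached an unadjusted p of 0.05. Dgat2 ran from 31.9 to 62.8 CPM in sham-vehicle (median 47.0), from 32.2 to 69.1 in CKD-vehicle (median 49.98) and from 35.1 to 58.8 in CKD-Oxf (median 52.2), with 62.1, 36.5, 72.0, 64.5 and 52.7 CPM in sham-Oxf. Its smallest p was between sham-Oxf and sham-vehicle, where the log2 difference was 0.33 ± 0.17 (edgeR p = 0.0592). Between the vehicle groups the log2 difference was −0.15 ± 0.19 for Dgat1 and 0.11 ± 0.16 for Dgat2.

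Of the lipases, Pnpla2 ran from 62.7 to 136 CPM in sham-vehicle (median 104), from 83.1 to 149 in CKD-vehicle (median 105) and from 83.3 to 209.9 in CKD-Oxf (median 106), with 114, 81.7, 137, 89.2 and 76.7 CPM in sham-Oxf. The medians of the 3 larger groups were thus nearly equal, and a single CKD-Oxf mouse lay far above the others. No group comparison of Pnpla2 had an unadjusted p under 0.05, and the smallest was between CKD-Oxf and sham-Oxf (log2 0.26 ± 0.20, edgeR p = 0.212, adjusted p = 0.824).

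Lipe, the hormone-sensitive lipase, ran from 28.8 to 108 CPM in sham-vehicle (median 52.7), from 29.6 to 101 in CKD-vehicle (median 43.2) and from 35.2 to 109.5 in CKD-Oxf (median 82.1). In sham-Oxf replicates 1 to 5 it was 53.8, 69.7, 80.7, 54.7 and 60.3 CPM. In CKD-Oxf 6 of 7 mice lay above the CKD-vehicle median and 2 above its highest mouse. The log2 difference between these groups was 0.64 ± 0.29 (edgeR p = 0.0365, adjusted p = 0.352), and by voom 0.82 ± 0.25 (adjusted p = 0.0280). The clock score is a difference of mean log2 levels of 2 lists of clock genes, relative to sham-vehicle. The first list is Dbp, Tef, Hlf, Per1, Per2, Per3, Nr1d1, Nr1d2, Ciart and Bhlhe41. The list subtracted is Arntl, Npas2, Clock, Nfil3 and Cry1. The score averaged −1.44 ± 0.99 over the CKD-vehicle mice (SD, n = 6). Over the Oxf mice it averaged 1.59 ± 0.44 with sham surgery (n = 5) and 1.00 ± 0.52 with CKD (n = 7). With that score as covariate the sign of the Lipe difference turned (−0.08 ± 0.36). The score itself differed between CKD-vehicle and CKD-Oxf, so this fit cannot tell its part from that of Oxf. With the cardiomyocyte score the Lipe difference was 0.22 ± 0.25 and with the 7SL share 0.41 ± 0.20. Both measures also averaged higher in CKD-vehicle than in CKD-Oxf, so the same limit holds for these fits. The time of day of the collections is not given in the sources used here, and its part in the result was not tested.

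Of the droplet coat genes, Plin2 ran from 15.8 to 29.1 CPM in sham-vehicle (median 25.0), from 15.9 to 23.4 in CKD-vehicle (median 19.6) and from 13.6 to 25.4 in CKD-Oxf (median 22.1), with 22.5, 14.7, 22.8, 22.0 and 18.9 CPM in sham-Oxf. All 6 CKD-vehicle mice and all 5 sham-Oxf mice lay below the sham-vehicle median. The log2 difference between CKD-vehicle and sham-vehicle was −0.29 ± 0.14 (edgeR p = 0.0411, adjusted p = 0.955). Unlike that of Vldlr, it was no smaller with the cardiomyocyte score as covariate (−0.45 ± 0.14, edgeR p = 0.00273, adjusted p = 0.389). Plin5, which ties droplets to mitochondria, ran from 12.96 to 58.7 CPM in sham-vehicle (median 25.9), from 24.8 to 64.1 in CKD-vehicle (median 41.6) and from 16.3 to 48.8 in CKD-Oxf (median 30.2). In sham-Oxf it was 46.2, 12.54, 25.7, 35.0 and 28.4 CPM. The log2 difference between the vehicle groups was 0.43 ± 0.29, within the wide spread of the gene.

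The mouse number was examined next, within groups. With 1 common slope over all groups, Lipe (0.078 ± 0.032 log2 per number, edgeR p = 0.0231, adjusted p = 0.824) and Angptl4 (0.131 ± 0.062, edgeR p = 0.0438, adjusted p = 0.824) had unadjusted p under 0.05, which makes 2 of 10 where 5.5% of all genes had one and 0.0371% passed. In sham-vehicle 0 of 10 had one (0.902% of all genes, 0.0124% passing). In CKD-vehicle it was 1 of 10, Lipe at 0.166 ± 0.079 (edgeR p = 0.0449, adjusted p = 0.896), against 2.44% and 0.00412%, and without mouse 919 that slope was 0.084 ± 0.079. In CKD-Oxf it was 2 of 10 (4.88% and 0%), and for the difference of the slopes 1 of 10, Pnpla2 (edgeR p = 0.0201, adjusted p = 0.571; 7.43% and 0%). EdgeR and DESeq2 called none of the 10 on mouse number, while voom called 5 of 10 in CKD-vehicle (where it called 8392 of all genes), 2 in CKD-Oxf and 1 for the difference. Among the other settings the common slope was as small as 0.006 for Lipe and 0.063 for Angptl4. The Lipe slope in CKD-vehicle was as small as 0.025.

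In CKD-Oxf, Pnpla2 was at 93.2, 83.3, 119, 106, 103, 121 and 209.9 CPM in mice 931, 932, 933, 934, 935, 936 and 940. The slope was 0.130 ± 0.038 log2 per number (edgeR p = 0.00217, adjusted p = 0.994). Pearson's r was 0.907 (exact permutation p = 0.00992, adjusted p = 0.988) and Spearman's rho 0.821 (exact permutation p = 0.0341, adjusted p = 0.874), among 30 such relations of 10 genes in 3 groups and with adjustment over all genes. Without mice 931 and 940, the 2 farthest from the median number, r was 0.627, and without mouse 940 alone the slope was 0.073 ± 0.072, so the relation rests on that mouse. Angptl4 was at 1.68, 2.20, 3.23, 1.28, 1.99, 6.55 and 11.04 CPM in the same mice (slope 0.304 ± 0.117, edgeR p = 0.0154, adjusted p = 0.994). Its r of 0.807 (exact permutation p = 0.0252, adjusted p = 0.988) was 0.442 without mice 931 and 940, and rho was 0.607 (exact permutation p = 0.167). Both genes were highest in mouse 940. Without it the Angptl4 slope was 0.281 ± 0.218, close in size but with a wider error (edgeR p = 0.210). Among the other settings the Angptl4 slope was as small as 0.136. Mice 936 and 940 had adipocyte scores of 2.63 and 1.86, against −3.38 to −0.36 in the rest of the group. The part of fat cells in this slope was not tested.

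**Figure D3:**
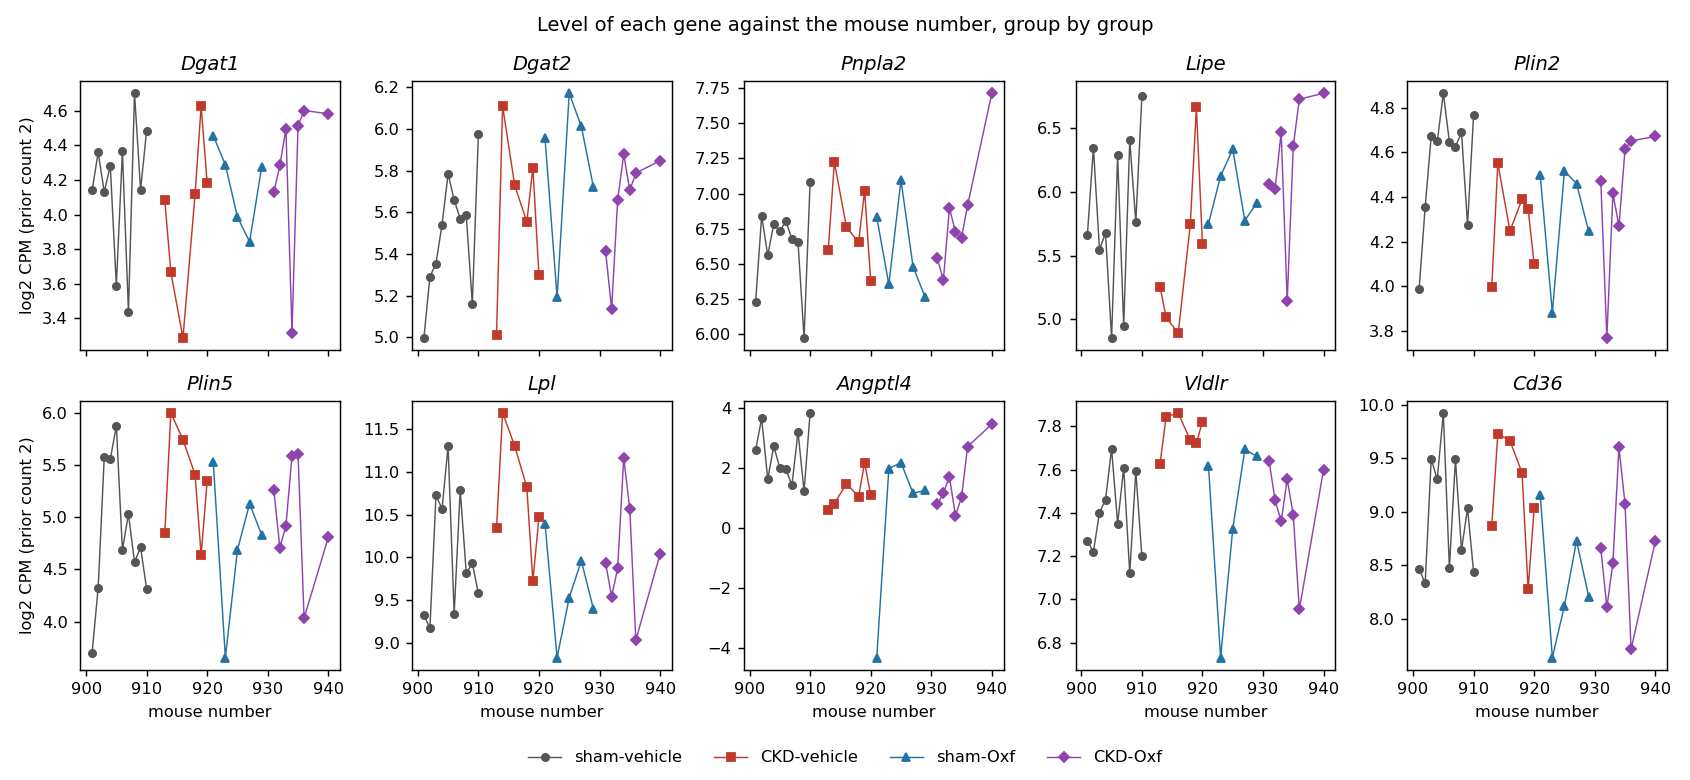
Log2 CPM of the 10 genes (y axes, a panel for each) against mouse number (x axis), with a coloured line for each group and a point for each mouse. In CKD-Oxf the Pnpla2 and Angptl4 points are highest at mouse 940 (209.9 and 11.04 CPM).

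The 10 genes could be put into sets, read off these same data, that varied together between mice of a group. The correlations given here are Pearson's r of log2 CPM after removal of the group means, over 28 libraries whose depth and composition all genes share, and are descriptions. Lpl and Cd36 had r = 0.98, Plin5 had 0.91 with each of them, and with Vldlr the 6 pairs of this set ran from 0.63 to 0.98. A second set held Dgat2 and Plin2 (r = 0.84), Dgat2 and Pnpla2 (0.73) and Pnpla2 and Plin2 (0.68), a lipase gene and a coat protein gene. Dgat1 and Lipe had r = 0.87, and Lipe and Angptl4 0.52. Dgat1 and Angptl4 had 0.22, and 0.57 without sham-Oxf replicate 1. Without that library Angptl4 also had 0.64 with Pnpla2 (0.27 with it), so it did not separate from Pnpla2. The first 2 sets were not sharply apart. Of the 12 pairs between them 11 were positive, from −0.03 to 0.50 in all (median 0.31). The 9 pairs of the second set with Dgat1, Lipe or Angptl4 ran from −0.15 to 0.32. All 12 pairs of a gene of the first set with Dgat1, Lipe or Angptl4 were negative, from −0.76 to −0.45. So in hearts with more Lpl, Cd36 and Plin5 RNA for their group there was less Lipe, Dgat1 and Angptl4 RNA.

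**Figure D4:**
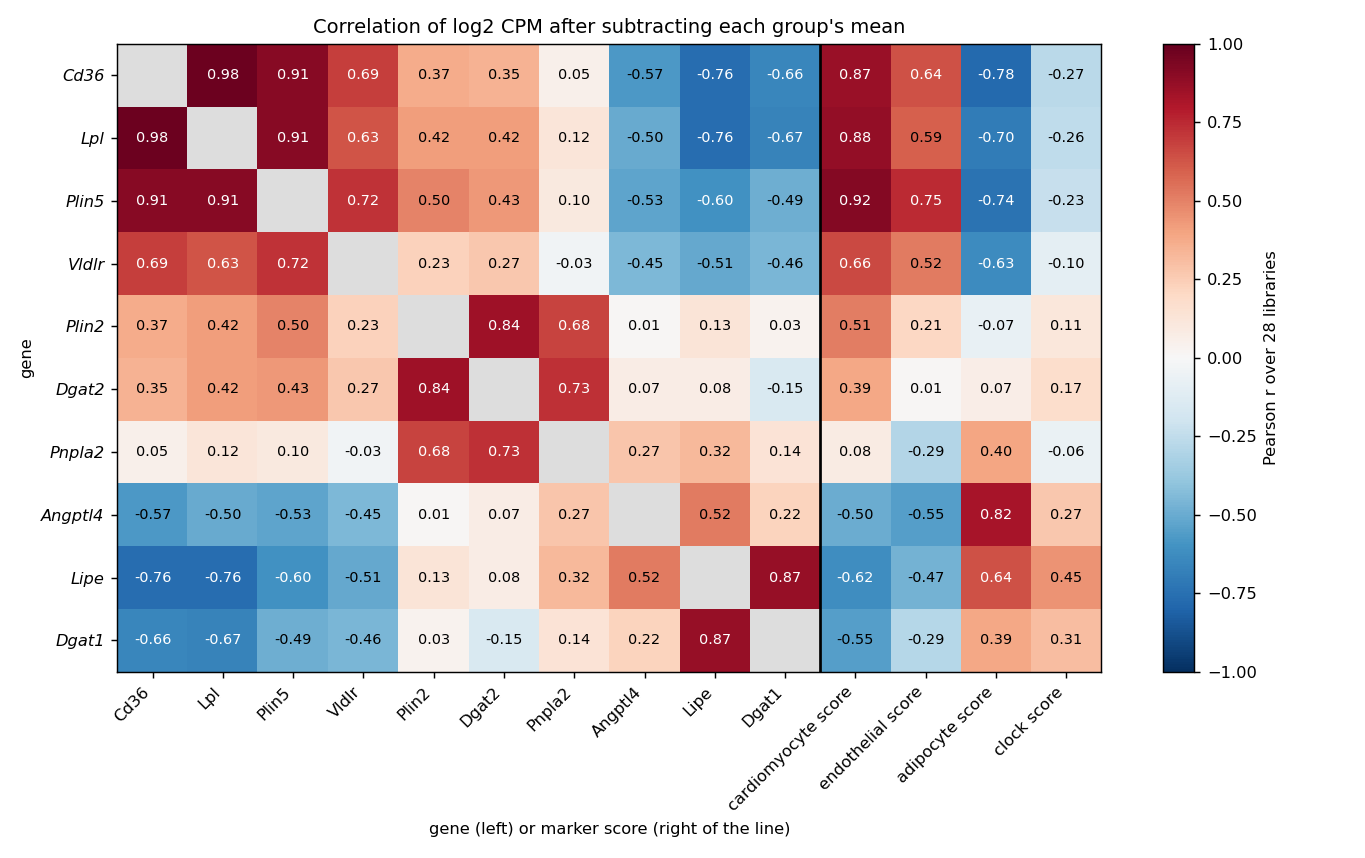
Pearson's r of log2 CPM after removal of group means for every pair of the 10 genes, and for each gene with 4 marker scores (right of the line), over 28 libraries. Lpl, Cd36, Plin5 and Vldlr form a block of positive values (0.63 to 0.98) that is negative against Dgat1, Lipe and Angptl4 (−0.76 to −0.45).

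These sets went with the marker scores, which were also fitted as slopes within groups, a choice made after the data were seen. A score is the mean log2 CPM of a marker list relative to the sham-vehicle mean, and a slope is the log2 change of a gene per unit of score. With the cardiomyocyte score, 8 of the 10 genes passed by edgeR, where 17.2% of all genes passed upward and 19.6% downward. Both droplet coat genes and 3 of the 4 uptake genes rose with it: Plin5 by 1.58 ± 0.14 (adjusted p = 6.74e-09), Lpl by 1.70 ± 0.19 (adjusted p = 9.37e-08), Cd36 by 1.39 ± 0.16 (adjusted p = 3.12e-07), Vldlr by 0.41 ± 0.11 (adjusted p = 0.00459) and Plin2 by 0.34 ± 0.13 (adjusted p = 0.0419). Lipe (−1.02 ± 0.24, adjusted p = 0.00142), Angptl4 (−1.63 ± 0.48, adjusted p = 0.00901) and Dgat1 (−0.58 ± 0.18, adjusted p = 0.0128) fell with it. Dgat2 (0.31, adjusted p = 0.136) and Pnpla2 (0.05, adjusted p = 0.855) did not pass. The call of Plin2 was lost in 16 of 28 fits that left out 1 library (0.22 to 0.42). Within groups this score also ran with the log2 total counts (r = 0.54, and 0.70 without sham-Oxf replicate 1) and the log2 7SL share (0.64). With more counts Dgat1 (r = −0.64) and Lipe (−0.57) were lower and Lpl (0.48) and Cd36 (0.44) higher. Dgat2 (0.07) and Plin2 (0.11) showed little relation to the counts. The part of depth in these slopes was not tested.

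With the adipocyte score, 6 of 10 passed by edgeR, where 18.2% of all genes passed upward and 12.1% downward. Angptl4 (0.41 ± 0.05, adjusted p = 2.66e-06) and Lipe (0.15 ± 0.03, adjusted p = 0.00168), both abundant in fat cells, rose with it. Cd36 (−0.20 ± 0.03, adjusted p = 7.96e-05), Plin5 (−0.20 ± 0.04, adjusted p = 0.000198), Lpl (−0.22 ± 0.04, adjusted p = 0.000756) and Vldlr (−0.06 ± 0.02, adjusted p = 0.0121) fell with it, although fat cells also express Cd36 and Lpl. Within groups the adipocyte and cardiomyocyte scores ran against each other (r = −0.73, n = 28), and the adipocyte score also ran against the log2 7SL share (r = −0.787). Cd36 (r = 0.80), Lpl (0.79) and Plin5 (0.71) were higher and Lipe (−0.78), Angptl4 (−0.66) and Dgat1 (−0.55) were lower where the 7SL share was higher, while Dgat2 (−0.03) and Plin2 (−0.05) showed next to no relation. The score of 5 endothelial markers was not fitted as a slope. It had r = 0.75 with Plin5, 0.64 with Cd36, 0.59 with Lpl and 0.52 with Vldlr, and −0.47 with Lipe and −0.55 with Angptl4. The part of cell composition, depth and RNA make-up in these relations was not tested. With the clock score 0 of 10 passed by edgeR, DESeq2 or voom, where edgeR passed 0.132% of all genes upward and 0.0371% downward. Lipe had the smallest p of the 10 there (0.33 ± 0.11, edgeR p = 0.00681, adjusted p = 0.412).

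**Figure D5:**
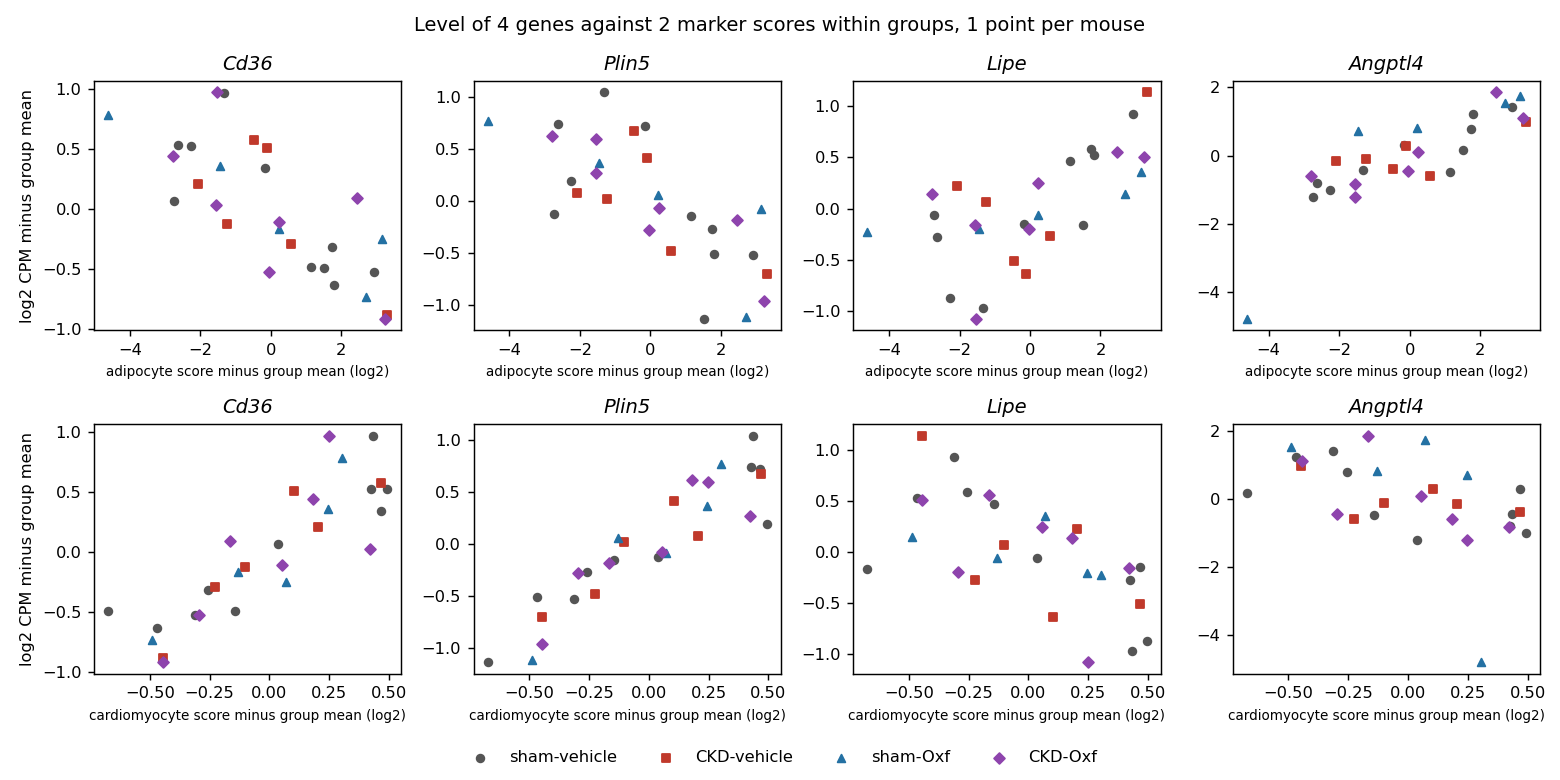
Log2 CPM of Cd36, Plin5, Lipe and Angptl4 (y axes) against the adipocyte (top) and cardiomyocyte (bottom) scores (x axes, log2), each minus its group mean, with a point for each mouse. Lipe and Angptl4 are higher where the adipocyte score is high, and Cd36 and Plin5 where the cardiomyocyte score is high; the lowest Angptl4 point is the library with no count.

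The genes with the most similar pattern over all 28 libraries, by Spearman's rho among 13905 genes, were as follows. For Lpl they were Mb (myoglobin, 0.985), Etfa (an electron transfer flavoprotein subunit, 0.984) and Cd36 (0.982). For Cd36 they were Lpl, Etfa (0.976) and Bsg (0.975). Plin5 was nearest to Idh3b (0.957), Cyc1 (0.957) and Ldhb (0.956), all enzymes of energy metabolism. Among the genes nearest to Plin2 were Dgat2 (0.786) and Acsl1 (0.739), and Dgat2 was nearest to Acsl1 (0.834), Glul (0.822) and Aldh6a1 (0.789). Pnpla2 was nearest to Fbxo21 (0.854), Atpaf2 (0.817) and Dgat2 (0.777). Vldlr was nearest to Cacna2d1 (0.869), Abcd3 (0.862) and Mylk3 (0.844). Lipe was nearest to Plekhm1 (0.929), Sik2 (0.912) and Adamts14 (0.889), and Angptl4 to Hacd2 (0.908), Ntrk3 (0.861) and Psd (0.854). The nearest genes of Dgat1 were RP24-240K8.3 (0.889), RP23-292C5.7 (0.879) and Slc4a8 (0.874). Several of these ranks depended on sham-Oxf replicate 1: without it Ntrk3 and Psd ranked 40.5 and 39 for Angptl4, the 3 genes given for Dgat1 ranked 14, 24 and 13, and Bsg ranked 21 for Cd36.

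Of the wider triglyceride pathway, 46 genes were listed, of which 42 were tested. In the comparisons of groups, 2 of the 42 passed, both for the averaged effect of Oxf, for which 2.81% of all genes passed. Plin4, another droplet coat gene, rose by 0.49 ± 0.14 (log2, edgeR adjusted p = 0.0489), and Cideb, a droplet protein known from liver, fell (log2 −1.10 ± 0.31, edgeR adjusted p = 0.0478). Plin4 averaged 843 ± 221 CPM (SD, n = 10) and 877 ± 297 CPM (n = 6) in the sham and CKD mice given vehicle, against 1129.8 ± 216 CPM (n = 5) and 1287 ± 218 CPM (n = 7) in those given Oxf. Both calls were near the threshold: each was kept in 8 of 28 fits that left out 1 library, where Plin4 ranged from 0.43 to 0.57 and Cideb from −1.19 to −0.98. With the clock score as covariate Plin4 was at 0.03 ± 0.18. That score went with the gavage, so for the averaged effect such a fit cannot tell its part from that of Oxf. Cideb was near the limit of detection in all groups, from 0.0883 ± 0.060 CPM in sham-Oxf to 0.298 ± 0.089 in sham-vehicle. Of a second list of 18 fasting and PPAR target genes, 17 were tested and 1 passed in these comparisons, Cpt1a, which gates the entry of long-chain fatty acids into mitochondria, higher with Oxf by 0.46 ± 0.10 (edgeR adjusted p = 0.0196). Cpt1a was at 46.9 ± 6.66 CPM in sham-vehicle and 39.8 ± 5.75 in CKD-vehicle, against 59.7 ± 10.6 in sham-Oxf and 58.8 ± 13.9 in CKD-Oxf. The Cpt1a call was kept in 26 of 28 fits that left out 1 library, and lost without CKD-vehicle replicate 2 or sham-Oxf replicate 5. It was also lost with the clock score as covariate (0.37 ± 0.16, edgeR adjusted p = 0.774) and with the 7SL share (0.34 ± 0.10, edgeR adjusted p = 0.0995). For this effect the median log2 difference was −0.03 over the 42 pathway genes and 0.003 over all genes tested.

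In the other comparisons none of the 42 pathway genes passed. Between CKD-vehicle and sham-vehicle the smallest p belonged to Fitm2, which helps droplets form (log2 0.49 ± 0.14, edgeR p = 0.00152), Apob (−2.47 ± 0.87, edgeR p = 0.00819) and Fitm1 (0.55 ± 0.24, edgeR p = 0.0273). Apob, the protein of lipoprotein particles, was low throughout, at 0.250 to 0.704 CPM in CKD-vehicle and 0.372 to 7.83 CPM in sham-vehicle. The 4 hepatocyte markers (Alb, Apoa1, Apoa2 and Ttr) summed to medians of 4.42 CPM in sham-vehicle and 4.03 CPM in CKD-Oxf, against 0.814 CPM in CKD-vehicle. All 4 had an unadjusted p under 0.05 in each comparison of CKD-vehicle with these groups (median log2 −2.17 against sham-vehicle, and 2.76 for CKD-Oxf against CKD-vehicle), though none passed. Their part in the Apob values was not tested. Between CKD-Oxf and CKD-vehicle it was Apob (3.12 ± 0.92, edgeR p = 0.00209), Fitm2 (−0.45 ± 0.15, edgeR p = 0.00681) and Plin4 (0.55 ± 0.20, edgeR p = 0.00920). These 2 comparisons share the CKD-vehicle mice. Between sham-Oxf and sham-vehicle it was Cideb (−1.65 ± 0.46, edgeR p = 0.00118), and between CKD-Oxf and sham-Oxf Lpin1, a phosphatidate phosphatase (0.33 ± 0.12, edgeR p = 0.00927). With the cardiomyocyte score 14 of the 42 rose and 7 fell. Among them Fabp3, the fatty acid binding protein of heart, rose by 1.68 per unit, Plin3 by 1.22 and the monoglyceride lipase Mgll by 0.69, while Agpat2 (−1.06) and Pnpla3 (−2.47) fell. Of all genes, 17.2% rose and 19.6% fell with this score. With the adipocyte score 6 rose and 7 fell, where 18.2% of all genes rose and 12.1% fell; Plin1 and Cidec, which are on this list, enter that score themselves.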

How the data were processed

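The data are whole-number counts per gene, deposited by the authors as 1 table of 28 mouse libraries. Per the submitters' processing notes, tools included STAR 2.6.1d, featureCounts of Subread 1.6.3, FastQC 0.11.7 and MultiQC 1.9, with mm10; the annotation, strand setting and treatment of reads with several matches are not given in the sources used here. Counts were tested with edgeR 4.0.16 in R 4.3.3 (TMM, filterByExpr by group with a minimum count of 10, robust quasi-likelihood F test, all 4 groups in 1 fit), with Benjamini-Hochberg adjustment over all genes tested and a threshold of 0.05. Log2 CPM used a prior count of 2. Alternatives used DESeq2 1.42.0 and limma 3.58.1. The fit was tested on simulated data. The text names all 10 members and, of each list, the genes that passed or, where none did, those with the smallest p; nearest genes are the 3 with the highest Spearman's rho, of which 1 is not reported here. Members and lists were chosen with earlier results of these data known. Columns with no sample numbered 0.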

Additional observations from a re-analysis of the deposited data

Results flagged for a closer look

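In 52 comparisons of a group of 5 to 10 mice with its own extreme, 5 had a mouse farther from its neighbour than Dixon's 95% critical value (0.568 for 7 mice, 0.710 for 5), where chance gives about 1 in 20. In CKD-Oxf, Dgat1 was lowest in replicate 4 (9.92 CPM, a gap of 0.631 of the group's range), Pnpla2 highest in replicate 7 (209.9 CPM, 0.599) and Vldlr lowest in replicate 6 (124 CPM, 0.592). In sham-Oxf, Angptl4 was lowest in replicate 1 (0 counts, 0.843), the library with the fewest counts and the fewest genes with a count. The clock score was lowest in CKD-Oxf replicate 1 (−0.08, against 0.97 for the next mouse, 0.619).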

How the results depend on the processing

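Of 1177 values of 34 results on single genes under the alternatives, 1145 kept direction and side of the threshold, 11 passed it newly, 20 lost it (Plin2 against the cardiomyocyte score) and 1 changed sign: Lipe between CKD-Oxf and CKD-vehicle with the clock score as covariate (−0.079). A result that had not passed counts as kept if it again did not pass with the same sign, whatever its size. Lpl for the averaged effect of Oxf counts as kept at −0.011, against −0.60 as reported. The fits that left out 1 library include libraries outside the groups compared. These counts therefore say little of how far the sizes held. The number of the 10 genes called, 0 in each group comparison and slope on mouse number, was 1 between CKD-Oxf and CKD-vehicle by voom, and 1 between sham-Oxf and sham-vehicle with the 7SL share as covariate (Angptl4, −2.49 ± 0.51, edgeR adjusted p = 0.0266). In that fit sham-Oxf replicate 1, with no Angptl4 count, had a 7SL share of 10.3%, against 1.83% to 3.66% in the rest of its group. The call was not tested without that library. For the averaged effect of Oxf the number called was 2 by voom and 2 with the adipocyte score, and 0 to 2 on leaving out 1 library, with 2 without CKD-Oxf replicate 4. By voom it was 2 for the slope in CKD-Oxf, 5 in CKD-vehicle and 1 for the difference of the slopes. The cause was not tested. Over all genes, calls for the averaged effect of Oxf were 681, from 109 (without CKD-vehicle replicate 2) to 3362 (without CKD-Oxf replicate 4) on leaving out 1 library, and from 0 (clock score) to 5336 (voom) under the others. Between CKD-Oxf and CKD-vehicle they were 8, from 0 to 927 on leaving out 1 library (without CKD-vehicle replicate 1 and without CKD-Oxf replicate 4) and up to 3639 by voom. Over all alternatives the calls ranged from 0 to 93 between the vehicle groups (2 as reported), from 0 to 141 between the sham groups (0), from 0 to 100 between the Oxf groups (0) and from 0 to 126 for the averaged effect of CKD (0). For the slopes on mouse number they ranged from 0 to 39 in common (9), 0 to 947 in CKD-Oxf (0), 0 to 8392 in CKD-vehicle (1), 0 to 11 in sham-vehicle (3) and 0 to 1009 for the difference (0). Against the scores they ranged from 4022 to 9234 for adipocyte (7350), 6260 to 11888 for cardiomyocyte (8936) and 16 to 207 for clock genes (41), and of the 10 genes 6 to 8 were called against each of the first 2. No paired analysis was possible because the groups share no replicate number or mouse in the labels. Angptl4, at 0 to 14.4 CPM, was the lowest of the 10 genes. The filter of 10 counts in every library leaves it out because sham-Oxf replicate 1, with 19.8 M counts, had none. Sham-vehicle replicate 2, with 22.3 M counts, had 326 counts of it.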
